A study of Rattus norvegicus with 18 samples.

Results

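The 9 genes described here code for proteins that degrade amyloid-β (Aβ) or help to clear it from around cells. They are the metalloproteases Mme, Ide, Ece1 and Ece2, the plasminogen activators Plat and Plau, the endocytic receptors Lrp1 and Vldlr, and the secreted carrier and protease inhibitor A2m. They were picked by gene symbol, and 9 of the 9 symbols were listed for both cell types, among 17307 genes in the astrocyte tables and 17327 in the microglia tables. Primary astrocytes and microglia were grown from the cortices of WT Sprague–Dawley rat pups at postnatal day 2, the microglia shaken off mixed glial cultures and the astrocytes recovered from the attached layer. Each cell type was placed in serum-free medium and then left untreated as control, or exposed for 24 h to fibrils of Aβ42 or of Aβ40 at 25 µM. RNA was sequenced in 3 libraries per group, 18 in all. Glia of newborn animals cultured as a single cell type lack the neurons and vessels that handle Aβ in the brain, and the control cells received no other protein in place of the fibrils.

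Extracellular Aβ is removed by proteolysis and by transport. Neprilysin, insulin-degrading enzyme and the endothelin-converting enzymes cut the soluble peptide directly, whereas the plasminogen activators act by turning plasminogen into plasmin, a serine protease that can also attack aggregated Aβ. Lrp1 and Vldlr take up Aβ bound to carriers such as apolipoprotein E and α2-macroglobulin, so carriers and receptors work as one route.

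The counts on genes ranged from 3674043 to 19013919 per library in astrocytes and from 2271834 to 22274367 in microglia. Levels are given as CPM, the counts of a gene scaled for library size, with TMM factors computed within each cell type. A count of 3 or fewer in a library was taken as its detection limit, which lay between 0.161 and 0.835 CPM in astrocytes and between 0.130 and 1.38 CPM in microglia. These limits and the errors below cover the counting and the spread between libraries. Whether replicates were separate cultures was not stated, so the p-values measure the spread between these samples, which may be technical. Changes are edgeR quasi-likelihood estimates on the log2 scale with their standard error (SE), for n = 3 libraries per group, and a gene was called at a Benjamini-Hochberg adjusted p under 0.05 over all genes tested. The Aβ42 and Aβ40 comparisons share the control libraries of their cell type.

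The labelled cell types were checked against 9 markers each. In control astrocytes the astrocyte markers summed to 10880, 8962 and 9205 CPM, with Gfap the most abundant, and the microglia markers summed to 363, 314 and 368 CPM. In control microglia the microglia markers summed to 5631, 5604 and 6368 CPM, with Csf1r the most abundant, and the astrocyte markers to 277, 261 and 247 CPM. Each list was higher in the cells it marks, and each culture also held RNA of the other list. The summed lists were lower under the fibrils in the cells they mark. The astrocyte list stood at 60.9% of its control mean with Aβ42 and 67.7% with Aβ40 in astrocytes, and the microglia list at 27.7% and 31.8% in microglia. Fewer cells of a type and less RNA per cell cannot be told apart in such libraries.

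**Figure D1:**
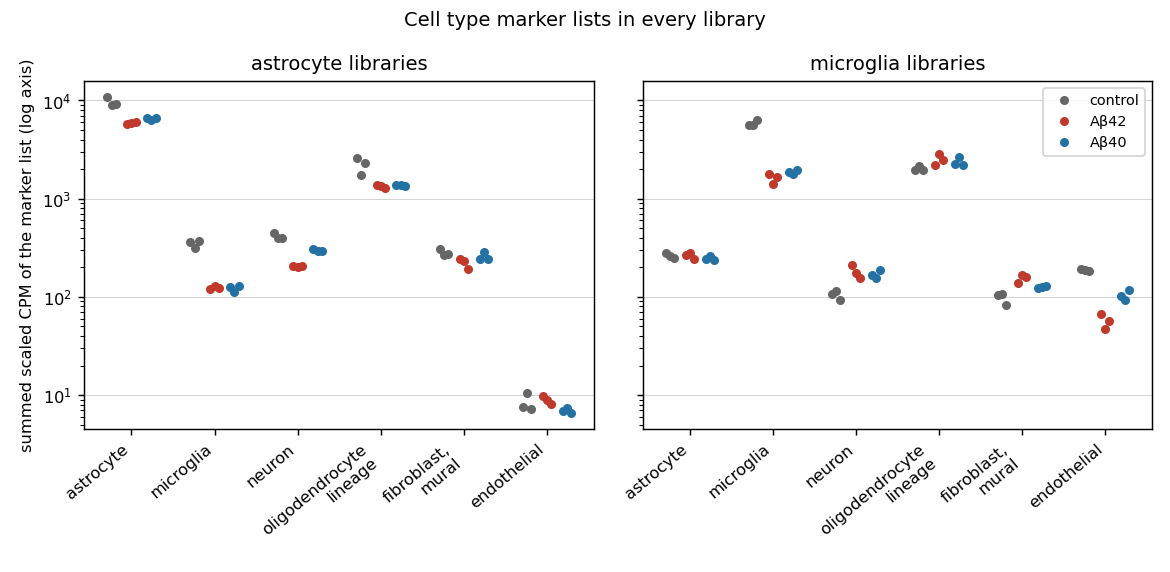
Summed scaled CPM of 6 cell type marker lists (log axis) in each astrocyte library (left) and microglia library (right), 1 point per library, coloured by treatment. In microglia libraries the astrocyte list lay between 238 and 281 CPM under all 3 treatments, while the microglia list lay between 1417 and 1958 CPM with either fibril, under every control library.

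In astrocytes 3 of the 9 genes were called lower with Aβ42 (Ece2, Plau and A2m), beside 2388 of all 11690 genes tested (20.4%). With Aβ40 the genes called lower were the same 3 of 9, beside 2149 genes (18.4%). By edgeR 0 of the 9 were called higher with Aβ42, where 1933 genes (16.5%) were; 1 was higher at an unadjusted p under 0.05 (Mme) and 0 were by DESeq2. With Aβ40 0 of the 9 were called higher by edgeR, against 1739 genes (14.9%), with 0 at an unadjusted p under 0.05 and 0 by DESeq2. The median change of the 9 genes was -0.33 with Aβ42 and -0.43 with Aβ40, beside medians of 0.00 over all genes.

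In microglia 8 of the 9 genes had enough counts to be tested, since A2m was near the detection limit throughout. With Aβ42, 3 of the 8 were called higher (Mme, Ece1 and Plat), beside 2935 of 10837 genes (27.1%), and 3 were called lower (Ide, Plau and Vldlr), beside 2885 genes (26.6%). With Aβ40 these 3 were again higher, beside 2126 genes (19.6%), and these 3 again lower, beside 2319 genes (21.4%). A rise of at least 5-fold was reached by Mme and Plat, 2 of 8 genes, with either fibril; over all genes 400 (3.69%) reached it with Aβ42 and 364 (3.36%) with Aβ40. The median change of the 8 genes was 0.01 with Aβ42 and -0.21 with Aβ40, beside 0.01 over all genes with either fibril. Counts as small as these, on genes picked by name, describe the 9 genes and no wider group.

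**Figure D2:**
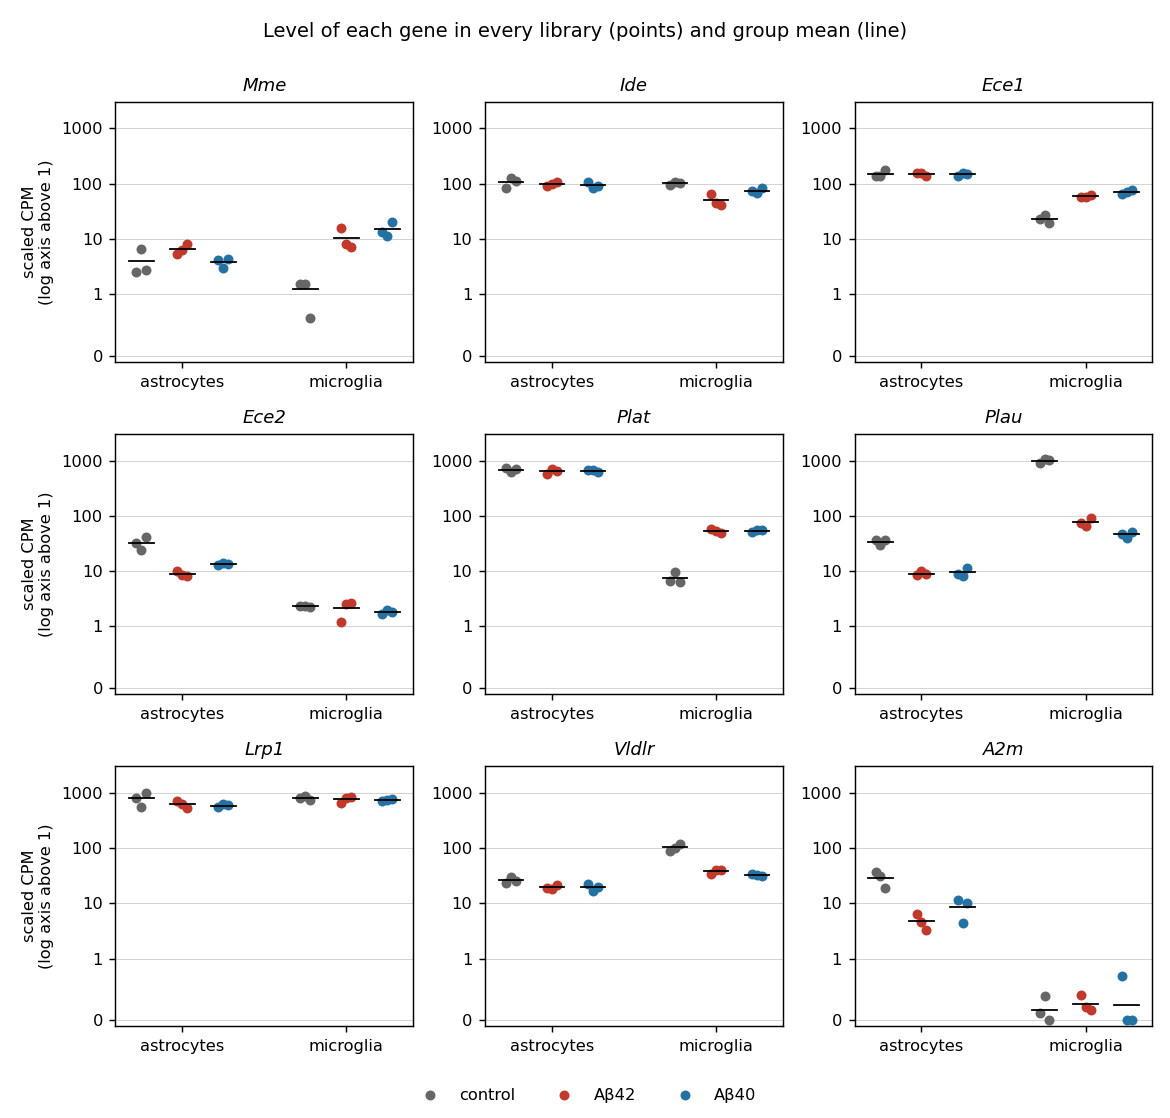
Scaled CPM of each of the 9 genes in every library, by cell type and treatment; points are libraries, black lines are group means, and the axis is linear up to 1 CPM and logarithmic above. Plau fell from a mean of 1003 CPM to 77.1 and 46.5 CPM in microglia, where Plat rose from 7.50 to 53.0 and 54.3 CPM. Each cell type was scaled on its own.

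Mme codes for neprilysin, a membrane metalloendopeptidase and a major Aβ-degrading enzyme of the brain. In microglia its level was 1.53, 1.55 and 0.610 CPM in the controls. It was 16.0, 8.01 and 7.30 CPM with Aβ42. With Aβ40 it was 13.3, 11.4 and 20.7 CPM. The 6 treated libraries all lay above the 3 controls, and Aβ42 replicate 1 lay among the Aβ40 libraries, above the other libraries of its group. The rise was 7.19-fold with Aβ42 (log2 change 2.85, SE 0.41, adjusted p = 1.1e-04 by edgeR) and 11.6-fold with Aβ40 (3.53, SE 0.42, adjusted p = 2.9e-05). The control values rest on 13, 8 and 4 counts. Aβ42 against Aβ40 gave -0.69 (SE 0.31, adjusted p = 0.12), and without Aβ42 replicate 1 it gave -0.90 with an adjusted p of 0.0031.

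Astrocytes had 2.50, 6.70 and 2.81 CPM of Mme as controls, 5.42, 6.37 and 8.05 CPM with Aβ42, and 4.16, 2.996 and 4.38 CPM with Aβ40. Control replicate 2 lay above 2 of the Aβ42 libraries, so the groups overlapped. The change with Aβ42 was 0.80 (SE 0.34, adjusted p = 0.094) and did not pass; without control replicate 2 it was 1.25 with an adjusted p of 0.0027. With Aβ40 it was 0.02 (SE 0.35, adjusted p = 0.98). Microglia exceeded astrocytes in this response by 2.08 with Aβ42 (SE 0.58, adjusted p = 0.0086) and by 3.51 with Aβ40 (SE 0.59, adjusted p = 1.4e-04), as tested by interaction.

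Ide codes for insulin-degrading enzyme, a largely cytosolic zinc protease that cuts insulin and monomeric Aβ. Control microglia had 95.5, 107 and 104 CPM. With Aβ42 the values were 66.0, 44.1 and 41.9 CPM. With Aβ40 they were 74.1, 68.2 and 84.1 CPM. All treated libraries lay below the controls, and the 3 groups did not overlap, with Aβ42 the lowest. Ide fell with Aβ42 by 1.06 on the log2 scale, a 2.09-fold drop (SE 0.16, adjusted p = 1.4e-04). With Aβ40 the fall was 0.44 on that scale (log2 change -0.44, SE 0.16, adjusted p = 0.041), close to the threshold. It was not called with DESeq2's size factors (adjusted p = 0.051) or with a replicate block (0.062). Nor was it called without any one of control replicates 1 (0.084), 2 (0.13) and 3 (0.13) or Aβ40 replicates 1 (0.12) and 2 (0.15). The adjusted p ranged from 4.3e-04 to 0.15 across the alternatives. The level of Ide was 49.6% and 73.9% of its control mean in these libraries, beside 27.7% and 31.8% for the summed microglia markers. Csf1r had means of 2494, 170 and 167 CPM in the controls, with Aβ42 and with Aβ40. The other microglia markers summed to 3374, 1455 and 1699 CPM in the same order. The part of these markers' cells in the fall of Ide was not tested. In astrocytes Ide lay between 82.4 and 127 CPM over all 9 libraries, with overlapping groups, and its changes were -0.11 (SE 0.17, adjusted p = 0.64) with Aβ42 and -0.18 (SE 0.17, adjusted p = 0.46) with Aβ40. The interaction, microglia minus astrocytes, was -0.95 with Aβ42 (SE 0.24, adjusted p = 0.0039) and -0.28 with Aβ40 (SE 0.24, adjusted p = 0.39).

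Ece1 codes for endothelin-converting enzyme 1, which makes endothelin from its precursor and cuts Aβ in acidic compartments. In microglia it was 23.6, 27.2 and 19.2 CPM in the controls. With Aβ42 it was 58.8, 58.1 and 63.9 CPM. With Aβ40 it was 64.4, 72.2 and 76.3 CPM. Every treated library exceeded every control, and the replicates of a treated group lay close together. The rise was 2.60-fold with Aβ42 (log2 change 1.38, SE 0.14, adjusted p = 4.3e-06) and 3.04-fold with Aβ40 (1.60, SE 0.14, adjusted p = 1.8e-06). In astrocytes Ece1 ranged from 136 to 175 CPM in the controls and from 138 to 159 CPM in the treated libraries, within the spread of the controls. Its changes there were 0.02 (SE 0.13, adjusted p = 0.94) with Aβ42 and -0.01 (SE 0.13, adjusted p = 0.96) with Aβ40; with Aβ42 the sign turned under library totals (-0.04). Its interaction was 1.35 with Aβ42 (SE 0.19, adjusted p = 1.6e-05) and 1.60 with Aβ40 (SE 0.19, adjusted p = 2.9e-06).

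Ece2 codes for a related enzyme with a more acidic optimum, best known from neurons and neuroendocrine cells. In astrocytes it was 32.3, 23.9 and 41.4 CPM in the controls. With Aβ42 it was 10.2, 8.39 and 8.05 CPM. With Aβ40 it was 12.7, 14.1 and 13.3 CPM. The 3 groups did not overlap, with the controls highest and Aβ42 lowest. Ece2 fell 3.70-fold with Aβ42 (log2 change -1.89, SE 0.21, adjusted p = 3.2e-05) and 2.47-fold with Aβ40 (-1.30, SE 0.20, adjusted p = 4.1e-04). Aβ42 against Aβ40 gave -0.58 (SE 0.20, adjusted p = 0.46) in the fit of all 9 libraries and -0.58 with an adjusted p of 0.046 in the 6 treated libraries alone. In microglia Ece2 lay between 1.20 and 2.68 CPM in all 9 libraries, and its changes were 0.08 (SE 0.25, adjusted p = 0.81) with Aβ42 and -0.32 (SE 0.34, adjusted p = 0.52) with Aβ40. The mean with Aβ42 was 2.13 CPM against 2.32 CPM in the controls, opposite to the fitted sign. Aβ42 replicate 1 had 3 counts. The interaction was 1.96 with Aβ42 (SE 0.32, adjusted p = 9.5e-05) and 0.96 with Aβ40 (SE 0.41, adjusted p = 0.084), and without astrocyte control replicate 2 the latter was 1.14 (adjusted p = 0.026).

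Markers of neurons were also lower in the treated astrocyte libraries. The 6 neuronal markers summed to 450, 393 and 400 CPM in the controls, nearly all of it Stmn2 (433, 373 and 387 CPM). They summed to 208, 202 and 207 CPM with Aβ42 and to 305, 290 and 294 CPM with Aβ40. The 8 markers of the oligodendrocyte lineage summed to 2573, 1725 and 2327 CPM in the controls. They stood at 60.2% of the control mean with Aβ42 and at 61.5% with Aβ40. No marker of these lists was at 0 in an astrocyte library. Before the astrocytes were harvested the flasks had been shaken again to take off oligodendrocyte precursors. The part of these cells in the fall of Ece2 was not tested.

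Plat codes for tissue-type plasminogen activator, which is secreted and activates plasminogen on fibrin and on aggregated proteins. Astrocytes had 725, 623 and 705 CPM as controls. They had 578, 702 and 654 CPM with Aβ42. They had 670, 668 and 621 CPM with Aβ40. The groups overlapped, and the changes were -0.09 (SE 0.12, adjusted p = 0.60) and -0.07 (SE 0.12, adjusted p = 0.69). The 95% interval for Aβ42 ran from -0.34 to 0.17 and that for Aβ40 from -0.32 to 0.19.

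In microglia the level of Plat was 6.60, 9.66 and 6.25 CPM in the controls. It was 58.0, 52.3 and 48.6 CPM with Aβ42. It was 52.1, 56.1 and 54.7 CPM with Aβ40. The treated libraries formed a narrow band far above the controls and did not separate by fibril. The rise was 7.11-fold with Aβ42 (log2 change 2.83, SE 0.16, adjusted p = 3.2e-08) and 7.36-fold with Aβ40 (2.88, SE 0.17, adjusted p = 4.5e-08). Aβ42 against Aβ40 gave -0.05 with a 95% interval of -0.35 to 0.25. The interaction with astrocytes was 2.91 for Aβ42 (SE 0.19, adjusted p = 1.5e-09) and 2.93 for Aβ40 (SE 0.20, adjusted p = 2.1e-09). The summed astrocyte markers of these libraries were 262 CPM in the controls, 263 CPM with Aβ42 and 247 CPM with Aβ40 as group means. Aldoc, the most abundant of them, was 58.1, 58.9 and 52.0 CPM in the controls, 80.8, 115 and 88.6 CPM with Aβ42, and 41.0, 51.7 and 33.1 CPM with Aβ40. Markers of fibroblasts and mural cells (8 genes, Col1a1 the most abundant, Rgs5 at 0 in every microglia library) summed to a mean of 98.6 CPM in the controls, 155 CPM with Aβ42 and 126 CPM with Aβ40. The 6 neuronal markers had means of 104, 180 and 170 CPM in the same order, with Stmn2 the most abundant (the other 5 summed to 29.9, 32.0 and 50.8 CPM) and Slc17a7 at 0 in every control and every Aβ40 library. Oligodendrocyte lineage markers had means of 2034, 2488 and 2380 CPM, with Mbp the most abundant. The part of these cells in the rises of Plat, Mme and Ece1 was not tested.

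Plau codes for urokinase-type plasminogen activator, which works at the cell surface bound to its receptor Plaur. In control microglia it stood at 923, 1054 and 1034 CPM. With Aβ42 it was 74.4, 64.9 and 91.9 CPM. With Aβ40 it was 48.0, 40.0 and 51.5 CPM. The treated libraries lay more than 10-fold below the lowest control, and the highest Aβ40 library lay below the lowest Aβ42 library. Plau fell 12.99-fold with Aβ42 (log2 change -3.70, SE 0.15, adjusted p = 2.1e-09) and 21.7-fold with Aβ40 (-4.44, SE 0.16, adjusted p = 1.3e-09), to 7.68% and 4.64% of the control mean. The summed microglia markers of the same libraries stood at 27.7% and 31.8% of theirs. Csf1r, the most abundant of them in the controls (2414, 2323 and 2745 CPM), fell by 3.87 with Aβ42 and by 3.90 with Aβ40 on the log2 scale. The part of these markers' cells in the fall of Plau was not tested. The 6 endothelial markers summed to means of 188, 57.2 and 104 CPM in the controls, with Aβ42 and with Aβ40. Most of this was Flt1 (157, 37.2 and 72.0 CPM), the other 5 summed to 30.7, 20.03 and 32.5 CPM, and Cldn5 was at 0 in every microglia library.

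In astrocytes Plau was much lower, at 37.0, 29.2 and 37.0 CPM in the controls. It was 8.38, 9.91 and 8.89 CPM with Aβ42 and 9.04, 8.13 and 11.3 CPM with Aβ40. Both treated groups lay below every control library and overlapped each other. The fall was 3.81-fold with Aβ42 (log2 change -1.93, SE 0.18, adjusted p = 8.2e-06) and 3.64-fold with Aβ40 (-1.86, SE 0.17, adjusted p = 1.0e-05). On the scale common to all 18 libraries the Plau level of control astrocytes was 2.88% of that of control microglia, and the summed microglia markers of control astrocytes were 4.99% of those of control microglia. In the treated astrocyte libraries the summed microglia markers stood at 35.5% of their control mean with Aβ42 and 34.9% with Aβ40, and Cx3cr1 was at 0 in 3 of the 6. The part of microglial RNA in the fall of Plau in astrocytes was not tested.

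The start regions of 3 genes that moved with both fibrils in microglia, Plau downward and Mme and Ece1 upward, are shown because these genes moved in opposite directions in the same cells. The RefSeq table of rat promoters (GRCr8) held 7 of the 9 genes, Plat and A2m being the ones without an entry. The 250 bases before each start were searched on both strands for an AP-1 site (TGANTCA), a GC box (GGGCGG), a PU.1 core (GAGGAA), a CRE-like site (TGACGTNA) and a TATA box (TATAAA). Capitals mark the GC boxes. The windows are chr15:3511988-3512237 on the minus strand for Plau, chr2:149872247-149872496 on the plus strand for Mme and chr5:155360781-155361030 on the plus strand for Ece1, each written 5′ to 3′ toward the start.
Plau: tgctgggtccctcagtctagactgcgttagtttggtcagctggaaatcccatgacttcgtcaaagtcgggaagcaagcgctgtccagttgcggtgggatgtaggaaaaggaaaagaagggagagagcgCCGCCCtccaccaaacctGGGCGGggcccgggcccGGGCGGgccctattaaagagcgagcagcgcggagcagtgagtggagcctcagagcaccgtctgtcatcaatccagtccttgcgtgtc
Mme: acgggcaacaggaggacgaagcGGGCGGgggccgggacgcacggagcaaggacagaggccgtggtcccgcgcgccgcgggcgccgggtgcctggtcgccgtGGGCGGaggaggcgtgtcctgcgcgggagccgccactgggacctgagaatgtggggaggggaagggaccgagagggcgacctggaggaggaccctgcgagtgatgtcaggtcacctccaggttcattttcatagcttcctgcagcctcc
Ece1: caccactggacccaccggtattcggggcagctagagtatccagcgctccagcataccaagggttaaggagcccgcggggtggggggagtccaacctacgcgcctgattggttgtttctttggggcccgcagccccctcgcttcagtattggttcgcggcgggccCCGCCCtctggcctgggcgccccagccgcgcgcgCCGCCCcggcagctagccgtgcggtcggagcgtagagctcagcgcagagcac
Plau had 3 matches to the GC box, and Mme and Ece1 had 2 each. Of the other 4 genes Vldlr had 3 matches, and Ide, Ece2 and Lrp1 had 1 each. A GC box was thus found in 7 of 7 windows, beside 30.5% of the 33469 promoters of the table. The AP-1 site, the PU.1 core, the CRE-like site and the TATA box were found in 0 of the 7 windows, beside 6.34%, 23.3%, 2.88% and 12.9% of all promoters. These 5 motifs were the only ones searched, and a match is a stretch of letters and no evidence of binding.

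Lrp1 codes for a large endocytic receptor of the lipoprotein receptor family that takes up Aβ, apolipoprotein E and α2-macroglobulin complexes. In microglia its level was 785, 856 and 734 CPM in the controls. It was 638, 808 and 845 CPM with Aβ42. It was 721, 727 and 768 CPM with Aβ40. The groups overlapped, with Aβ42 replicate 1 the lowest library. The changes were -0.05 (95% interval -0.31 to 0.21, adjusted p = 0.74) with Aβ42 and -0.10 (95% interval -0.36 to 0.16, adjusted p = 0.53) with Aβ40. The sign of the first turned without Aβ42 replicate 1 (0.06) and without control replicate 2 (0.02).

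In astrocytes Lrp1 was 803, 560 and 999 CPM in the controls. It was 705, 637 and 533 CPM with Aβ42, and 553, 615 and 587 CPM with Aβ40. The control libraries were the most scattered, and replicate 2 lay among the treated ones. Control replicate 2, Aβ42 replicate 3 and Aβ40 replicate 1 were each the lowest of their group. Their deviations correlated (r 0.494 to 0.527), and the fit used no block on them. The changes did not pass, at -0.33 (SE 0.19, adjusted p = 0.20) with Aβ42 and -0.43 (SE 0.19, adjusted p = 0.11) with Aβ40. Without control replicate 2 they passed, at -0.52 (adjusted p = 0.0042) and -0.62 (adjusted p = 0.0015).

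Vldlr codes for the very low density lipoprotein receptor, which binds apolipoprotein E and Reelin. Control microglia had 88.6, 99.5 and 119 CPM. With Aβ42 they had 34.4, 40.8 and 39.6 CPM. With Aβ40 they had 33.8, 32.9 and 31.3 CPM. All treated libraries lay under 41 CPM and all controls above 88 CPM, and each Aβ40 library lay below each Aβ42 library. Vldlr fell 2.64-fold with Aβ42 (log2 change -1.40, SE 0.13, adjusted p = 2.1e-06) and 3.12-fold with Aβ40 (-1.64, SE 0.14, adjusted p = 1.1e-06). The gap between the fibrils did not pass (0.24, SE 0.14, adjusted p = 0.20). Vldlr stood at 37.4% and 31.9% of its control mean, where the summed microglia markers stood at 27.7% and 31.8%. The part of these cells, and of the endothelial cells whose markers are given with Plau, in the fall of Vldlr was not tested.

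In astrocytes Vldlr was 23.7, 30.4 and 25.5 CPM in the controls, 18.8, 18.4 and 21.4 CPM with Aβ42, and 22.8, 16.4 and 19.8 CPM with Aβ40. The treated libraries lay below the controls without overlap, yet the changes did not pass, at -0.44 (SE 0.17, adjusted p = 0.060) with Aβ42 and -0.44 (SE 0.17, adjusted p = 0.065) with Aβ40. Control replicate 2, Aβ42 replicate 3 and Aβ40 replicate 1 were each the highest of their group. The deviations of these libraries correlated (r 0.494 to 0.527), and the fit used no block on them. The interaction was -0.97 with Aβ42 (SE 0.22, adjusted p = 0.0017) and -1.23 with Aβ40 (SE 0.22, adjusted p = 3.0e-04).

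A2m codes for α2-macroglobulin, a secreted protein that traps proteases, binds Aβ and is taken up by Lrp1. Control astrocytes had 37.0, 31.4 and 19.2 CPM. With Aβ42 they had 6.52, 4.55 and 3.24 CPM. With Aβ40 they had 11.4, 4.49 and 10.3 CPM. All treated libraries lay below the lowest control, and the fibril groups overlapped. A2m fell 5.81-fold with Aβ42 (log2 change -2.54, SE 0.39, adjusted p = 4.1e-04) and 3.32-fold with Aβ40 (-1.73, SE 0.37, adjusted p = 0.0039). Aβ42 against Aβ40 gave -0.81 (SE 0.39, adjusted p = 0.86). The neuronal and oligodendrocyte lineage markers given with Ece2 were lower in the same treated libraries, and their part in the fall of A2m was not tested. In microglia A2m had 1, 2 and 0 counts in the controls, 1, 5 and 3 counts with Aβ42, and 3, 0 and 0 counts with Aβ40, so its response was not tested in the fit of microglia alone.

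**Figure D3:**
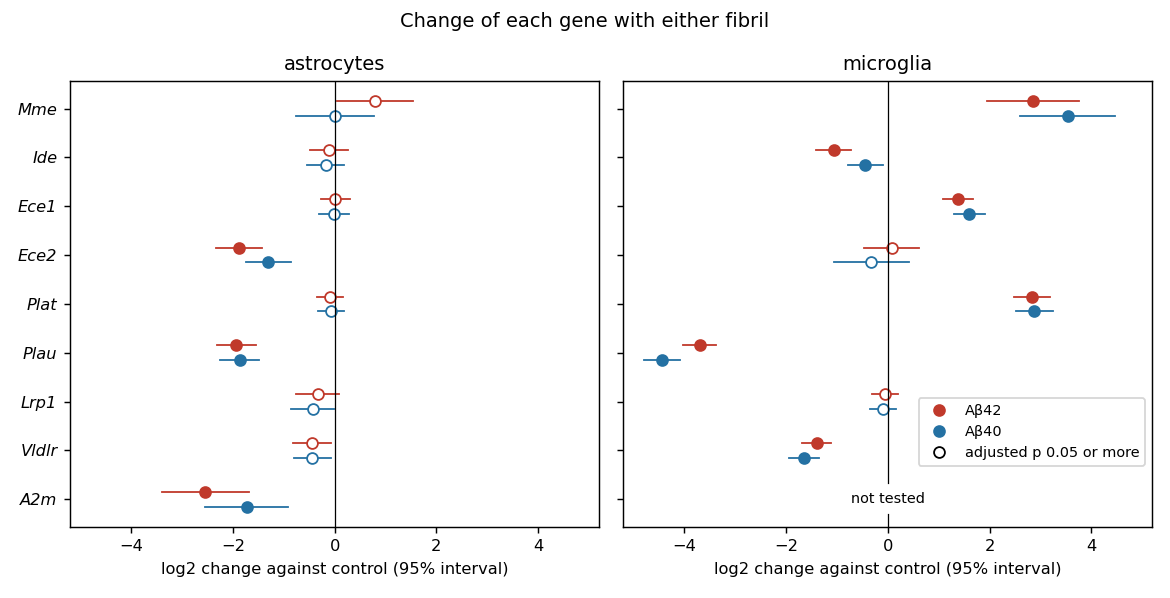
Log2 change of each gene against control with Aβ42 (red) and Aβ40 (blue) in astrocytes (left) and microglia (right), with 95% intervals from edgeR; open points have an adjusted p of 0.05 or more, and A2m was not tested in microglia. Mme, Ece1 and Plat lie to the right of 0 in microglia, and Plau lies to the left of 0 in both cell types.

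The fibrils were also compared with each other. In astrocytes 0 of the 9 genes differed between Aβ42 and Aβ40 by edgeR, beside 10 of 11690 genes (0.0855%); 2 did at an unadjusted p under 0.05 (Mme and Ece2), 0 did by DESeq2, and 1 did (Ece2) in the 6 treated libraries alone. In microglia 2 of 8 differed, beside 2198 of 10837 genes (20.3%). Ide was lower with Aβ42 than with Aβ40 (-0.62, SE 0.16, adjusted p = 0.028), and Plau was higher (0.74, SE 0.15, adjusted p = 0.015). These calls hung on the libraries used, since the count over all genes rose to 6004 without Aβ42 replicate 1, the library with the fewest counts of its group, and dropped to 106 with the control libraries left out of the fit. Ide was not called without control replicate 1 (adjusted p = 0.051), Aβ42 replicates 2 (0.13) or 3 (0.14), or Aβ40 replicates 1 (0.087), 2 (0.068) or 3 (0.11). It was also not called with a replicate block (0.055) or in the 6 treated libraries alone (0.081), over a range of 8.6e-06 to 0.14. Plau was not called without Aβ42 replicate 3 (0.080), Aβ40 replicates 1 (0.060), 2 (0.064) or 3 (0.051), or in the 6 treated libraries alone (0.061), over a range of 3.9e-04 to 0.080. The change kept its sign in each of these settings, and lay between -0.80 and -0.50 for Ide and between 0.58 and 0.87 for Plau.

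Control cells of the types were compared in a fit of 18 libraries on a common scale. Cultures, symbol sets and any sequencing batch differed with cell type, so these cannot be told apart from it. Of the 9 genes 2 were called higher in microglia (Plau and Vldlr), beside 3966 of 11581 genes (34.2%), and 5 were called lower (Mme, Ece1, Ece2, Plat and A2m), beside 3997 genes (34.5%). Scaling by library totals moved the median of all genes by -0.28 and the split to 3017 higher and 5047 lower, with the same 7 genes called. On the common scale Plau had a mean of 1115 CPM in control microglia and 32.1 CPM in control astrocytes, a 34.6-fold difference (5.11, SE 0.17, adjusted p = 1.0e-14). Plat had the opposite order, with 8.35 CPM in microglia and 640 CPM in astrocytes, a 77.8-fold difference (-6.28, SE 0.16, adjusted p = 5.4e-16). Control microglia therefore had the higher level of urokinase RNA, and control astrocytes the higher level of tissue-type activator RNA. Vldlr had 114 and 24.8 CPM in microglia and astrocytes (2.20, SE 0.16, adjusted p = 3.0e-10).

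Ece1 had 26.0 CPM in control microglia and 139 CPM in control astrocytes (-2.43, SE 0.14, adjusted p = 1.2e-11). Ece2 had 2.58 and 30.4 CPM (-3.57, SE 0.23, adjusted p = 5.3e-11). Mme had 1.37 and 3.75 CPM (-1.34, SE 0.49, adjusted p = 0.022). This call was lost without astrocyte control replicate 2 (-0.88, adjusted p = 0.11) or without microglia control replicate 3 (-1.02, adjusted p = 0.0986). It was also lost with a replicate block (-0.92, adjusted p = 0.21) and with only the astrocyte libraries of one naming style (-0.93, adjusted p = 0.094). The adjusted p ranged from 0.0038 to 0.21. A2m was at least 53.0-fold higher in control astrocytes, at a mean of 27.3 CPM against a limit of 3 counts per library in microglia. Ide, at 114 CPM in microglia and 100 CPM in astrocytes, and Lrp1, at 881 and 735 CPM, did not pass (0.18, 95% interval -0.17 to 0.53, and 0.26, 95% interval -0.08 to 0.60). Lrp1 passed without astrocyte control replicate 3 (0.46, adjusted p = 0.018).

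The difference between the responses of the cell types was tested as an interaction. It was called for 7 of the 9 genes with Aβ42, beside 4314 of 11581 genes (37.3%), and for 5 of the 9 with Aβ40, beside 3768 genes (32.5%). With Aβ42 the 7 were Mme, Ide, Ece1, Ece2, Plat, Plau and Vldlr, and with Aβ40 they were Mme, Ece1, Plat, Plau and Vldlr. Plau, which fell in both cell types, fell further in microglia with either fibril. Not called were Ide and Ece2 with Aβ40, whose values stand above, and Lrp1 with Aβ42 (0.28, SE 0.23, adjusted p = 0.37) and Aβ40 (0.31, SE 0.23, adjusted p = 0.33). A2m was not called either, with an adjusted p of 0.094 with Aβ42 and 0.32 with Aβ40, and no size is given because its microglia side rests on 0 to 5 counts per library. With Aβ42 it was called by the DESeq2 Wald test (adjusted p = 0.015) and without astrocyte Aβ40 replicate 2 (adjusted p = 0.044). Without astrocyte control replicate 2 those of Lrp1 passed, at 0.47 (adjusted p = 0.041) and 0.50 (adjusted p = 0.040).

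The levels of the genes over the 6 groups were put in order from these values where the groups allowed it. Plau ran from control microglia down through treated microglia and control astrocytes to treated astrocytes, and the astrocyte groups under the fibrils overlapped. Plat ran from the 3 astrocyte groups, which overlapped, through the treated microglia, which overlapped, to control microglia. Vldlr was highest in control microglia, followed by treated microglia, with the astrocyte groups lowest. Mme was highest in treated microglia and lowest in control microglia, with astrocytes between. Ece1 was highest in the overlapping astrocyte groups, then in treated microglia and last in control microglia. Ece2 ran from control astrocytes through astrocytes with Aβ40 and then with Aβ42 to the microglia groups. A2m ran from control astrocytes through the treated astrocytes, which overlapped, to the microglia groups near the detection limit. Ide and Lrp1 overlapped in most neighbouring groups, except that Ide with Aβ42 was the lowest group in microglia.

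Other proteases that cut Aβ formed a list of 12 genes. In astrocytes 10 were tested, and 5 were called higher and 1 lower with Aβ42, with a median change of 0.58. With Aβ40 3 were called higher and 0 lower by edgeR (1 lower at an unadjusted p under 0.05, and 1 by DESeq2), with a median of 0.33. Microglia had 9 tested: 6 were called higher and 1 lower with Aβ42 (median 0.73), and 4 were called higher and 2 lower with Aβ40 (median 0.35). Over all genes 16.5% were higher and 20.4% lower in astrocytes with Aβ42, 14.9% and 18.4% with Aβ40, and in microglia 27.1% and 26.6% with Aβ42, 19.6% and 21.4% with Aβ40, with medians of 0.00 in astrocytes and 0.01 in microglia. Mmp3, a stromelysin, had the largest fitted rise of the list in all 4 comparisons. It was at least 48.9-fold higher with Aβ42 and at least 20.5-fold higher with Aβ40 in astrocytes, where its control libraries had 0, 1 and 1 counts. In microglia its log2 change was 8.29 (SE 0.28, adjusted p = 7.5e-10) with Aβ42 and 7.60 (SE 0.29, adjusted p = 1.7e-09) with Aβ40, from 4 counts in each control library. The largest falls were those of Ace in astrocytes with Aβ42 (-0.49, SE 0.13, adjusted p = 0.013) and of the cathepsin Ctsb in microglia (-0.62, SE 0.12, adjusted p = 7.4e-04, with Aβ42 and -0.76, SE 0.12, adjusted p = 2.0e-04, with Aβ40). The interaction was 0.51 for Ace with Aβ42 (adjusted p = 0.045), and for Ctsb -1.24 with Aβ42 (adjusted p = 2.7e-05) and -1.17 with Aβ40 (adjusted p = 5.7e-05).

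The plasminogen system partners and inhibitors numbered 10, with 9 tested in each cell type; Plg itself, the substrate of Plat and Plau, had too few counts. In microglia 8 of 9 were called higher and 1 lower with Aβ42 (median 1.39), and 6 were higher and 0 lower with Aβ40 by edgeR (median 0.98; 0 lower at an unadjusted p under 0.05 and 0 by DESeq2). All genes of microglia had shares of 27.1% higher and 26.6% lower with Aβ42, and 19.6% and 21.4% with Aβ40. In astrocytes 3 were higher and 1 lower with Aβ42 (median 0.06), and 2 were higher and 1 lower with Aβ40 (median -0.05), where the shares of all genes were 16.5% and 20.4%, and 14.9% and 18.4%. Plaur, the urokinase receptor, rose in microglia by 2.51 (SE 0.19, adjusted p = 5.2e-07) and 1.98 (SE 0.19, adjusted p = 4.8e-06), in the libraries in which its ligand Plau fell. In astrocytes Plaur rose with Aβ42 (1.11, SE 0.34, adjusted p = 0.025) and did not pass with Aβ40 (0.49, SE 0.35, adjusted p = 0.32), where the interaction was 1.49 (adjusted p = 0.0085). Serpinb2, a urokinase inhibitor, had the largest fitted rise in microglia, at least 41.5-fold with Aβ42 and at least 31.1-fold with Aβ40, from 0, 0 and 1 counts in the controls. The largest falls were those of S100a10, a plasminogen-binding protein, in astrocytes (-0.78, SE 0.15, adjusted p = 0.0022, and -0.80, SE 0.15, adjusted p = 0.0022) and of Serpini1, neuroserpin, in microglia with Aβ42 (-0.57, SE 0.16, adjusted p = 0.0096). S100a10 rose in microglia (1.81 and 1.90), with interactions of 2.58 (adjusted p = 1.3e-07) and 2.68 (adjusted p = 1.0e-07), and the interaction of Serpini1 with Aβ42 was not called (-0.32, adjusted p = 0.44).

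**Figure D4:**
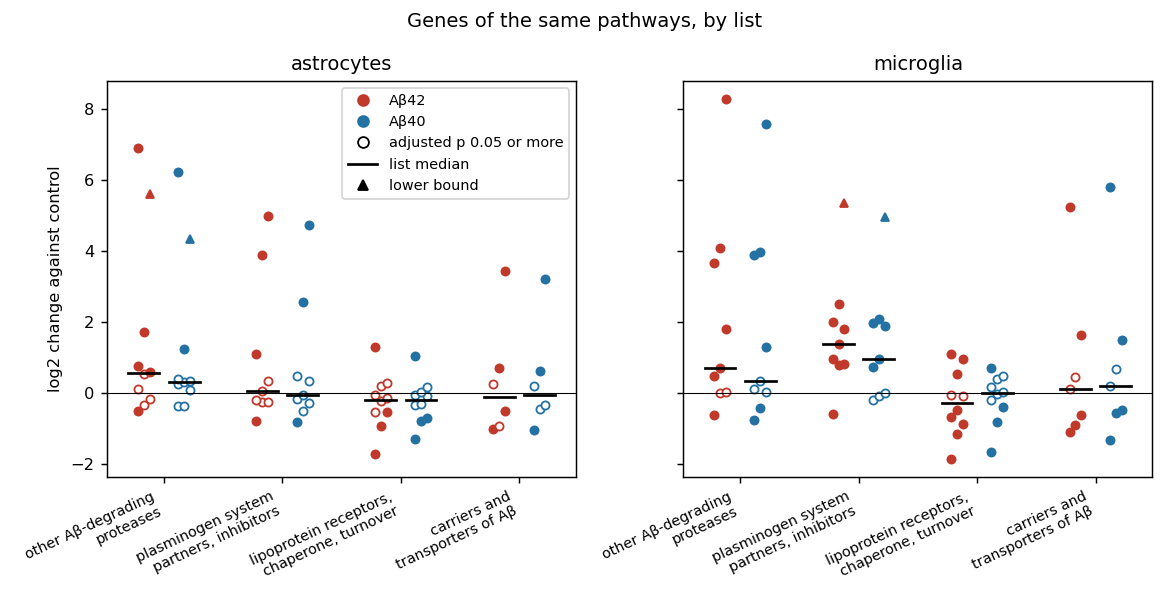
Log2 change against control of the genes in 4 lists, in astrocytes (left) and microglia (right), with Aβ42 in red and Aβ40 in blue; open points have an adjusted p of 0.05 or more, black lines are list medians, and triangles are lower bounds for genes at 3 counts or fewer in every control library. The plasminogen list had medians of 1.39 and 0.98 in microglia, and 0.06 and -0.05 in astrocytes.

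Relatives of Lrp1 and Vldlr, with their chaperone and the proteins that control their turnover, made a list of 13 genes, of which Lrp8 was not listed and 10 were tested in each cell type. In astrocytes 1 was higher and 3 were lower with either fibril (medians -0.18 with Aβ42 and -0.19 with Aβ40). In microglia 3 were higher and 5 lower with Aβ42 (median -0.27), and 1 was higher and 3 lower with Aβ40 (median 0.01). The shares of all genes called higher and lower were 16.5% and 20.4% in astrocytes with Aβ42, 14.9% and 18.4% with Aβ40, 27.1% and 26.6% in microglia with Aβ42, and 19.6% and 21.4% with Aβ40. The sorting receptor Sorl1 fell most in astrocytes, by 1.70 (SE 0.12, adjusted p = 1.2e-06) with Aβ42 and by 1.30 (SE 0.12, adjusted p = 8.8e-06) with Aβ40. In microglia the largest fall was that of Mylip, a ubiquitin ligase that sends Vldlr for degradation, with -1.84 (SE 0.14, adjusted p = 4.0e-07) and -1.65 (SE 0.15, adjusted p = 2.0e-06). Lrpap1, the chaperone of Lrp1, changed in microglia by -0.48 (SE 0.13, adjusted p = 0.0091) and -0.40 (SE 0.14, adjusted p = 0.035). The interactions were 2.23 and 1.76 for Sorl1 (adjusted p = 2.2e-07 and 1.9e-05), -1.33 and -0.90 for Mylip (adjusted p = 6.1e-04 and 0.014), and -0.35 and -0.36 for Lrpap1, not called (adjusted p = 0.15 in both).

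The carriers and transporters of Aβ numbered 8, with 6 tested in astrocytes and 7 in microglia. In astrocytes 2 were higher and 2 lower with Aβ42 (median -0.11), and 2 higher and 1 lower with Aβ40 (median -0.05). In microglia 2 were higher and 3 lower with either fibril (medians 0.12 and 0.22). Beside these, 16.5% of all genes were higher and 20.4% lower in astrocytes with Aβ42 (14.9% and 18.4% with Aβ40), and 27.1% and 26.6% in microglia (19.6% and 21.4% with Aβ40). Abcb1a, an efflux pump, had the largest rise in each comparison: 3.46 (SE 0.26, adjusted p = 2.0e-06) and 3.21 (SE 0.26, adjusted p = 4.1e-06) in astrocytes, and 5.24 (SE 0.32, adjusted p = 5.1e-08) and 5.80 (SE 0.32, adjusted p = 2.7e-08) in microglia, for Aβ42 and Aβ40. Apoe, the ligand shared by Lrp1 and Vldlr, had the largest fall in each: -1.01 (SE 0.24, adjusted p = 0.0063) and -1.04 (SE 0.24, adjusted p = 0.0059) in astrocytes, and -1.09 (SE 0.13, adjusted p = 2.5e-05) and -1.30 (SE 0.13, adjusted p = 6.7e-06) in microglia. Of the 6 relatives of A2m 4 were listed for astrocytes and 5 for microglia, and 0 had enough counts to be tested.

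Genes most like Plau in microglia and A2m in astrocytes were found among all tested genes, by the root mean square difference of log2 scaled CPM over 9 libraries after the mean of the controls was subtracted. In microglia Rarres1 (0.27) followed Plau most closely among 10836 genes, and Abca17 (0.33) was also near it. Rarres1 changed by -3.55 with Aβ42 and -4.18 with Aβ40. In astrocytes Cdh10 (0.36), Kcnc4 (0.42) and Tagln3 (0.42) followed A2m most closely among 11689 genes. A2m had the largest change of the 9 genes in astrocytes with Aβ42, whereas with Aβ40 Plau had it. Cdh10 changed by -2.34 and -2.11. These differences are on the log2 scale.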

How the data were processed

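RNA of 18 samples was sequenced from stranded mRNA libraries, and the authors' notes name STAR, Salmon, DESeq2 and the rn5 genome. The authors deposited raw read counts per gene symbol for each library; how strand was used in counting is not given in the sources used here. Rows for reads on no gene or on more than 1 gene held 26.0% to 34.2% of counts in astrocytes and 21.7% to 24.5% in microglia and were left out. Counts were scaled by TMM, filtered by filterByExpr and tested with edgeR 4.0.16 (glmQLFit, glmQLFTest) in R 4.3.3, over the 9 libraries of a cell type without covariates, or over all 18 for the 16704 symbols listed for both (603 were only in the astrocyte and 623 only in the microglia tables). Group sizes were 3. The method was tested on simulated data, and no outcome of that test is given or used here. No pair of replicates matched within sampling noise (lowest chi-square per gene 1.76).

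Alternatives were DESeq2 1.42.0's size factors or Wald test, library totals, other count filters, the 6 libraries compared alone, a replicate block, other thresholds, and each library left out. A further alternative, chosen after seeing the data, kept the 7 astrocyte libraries whose tables share a naming style, without control replicate 2 and Aβ42 replicate 3. Levels of the 9 genes were not compared with one another, since transcript lengths were not used here; the most abundant marker of a list is the one with the most CPM, without regard to length.

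The 9 genes and the lists were chosen with earlier results of these data known. Genes named beside the 9 were drawn from the largest rise and fall called in each list and comparison, up to 2 more per list acting directly on 1 of the 9, and the 3 genes most like 1 of the 9 per cell type, Plau in microglia and A2m in astrocytes (log2 CPM with a prior count of 2).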

Additional observations from a re-analysis of the deposited data

Results flagged for a closer look

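The response to the fibrils differed between microglia and astrocytes in 12 gene and fibril pairs by the interaction test of edgeR, given as the log2 change in microglia minus that in astrocytes. With Aβ42 the difference was 2.08 for Mme (adjusted p = 0.0086), -0.95 for Ide (adjusted p = 0.0039), 1.35 for Ece1 (adjusted p = 1.6e-05) and 1.96 for Ece2 (adjusted p = 9.5e-05). It was 2.91 for Plat (adjusted p = 1.5e-09), -1.77 for Plau (adjusted p = 4.8e-06) and -0.97 for Vldlr (adjusted p = 0.0017).

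With Aβ40 the difference was 3.51 for Mme (adjusted p = 1.4e-04), 1.60 for Ece1 (adjusted p = 2.9e-06), 2.93 for Plat (adjusted p = 2.1e-09), -2.59 for Plau (adjusted p = 5.7e-08) and -1.23 for Vldlr (adjusted p = 3.0e-04). Both sets use the same control libraries. The astrocyte values of Plau rest on libraries in which the summed microglia markers stood at 35.5% of their control mean with Aβ42 and 34.9% with Aβ40.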

How the results depend on the processing

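Of 39 called results of single genes, 35 kept call and direction in every alternative in which the gene was tested, and 0 turned sign, over 793 values. With at least 10 counts in every library Mme was not tested in astrocytes, Mme and Ece2 were not tested in microglia, and Mme, Ece2 and A2m were not tested in the fit of 18 libraries. The 4 that lost the call were Ide with Aβ40 and Ide and Plau between the fibrils in microglia, and Mme between control cells. With a replicate block they gave adjusted p of 0.062 for Ide with Aβ40, 0.055 for Ide between fibrils and 0.21 for Mme (-0.92), and Plau kept its call. Libraries of the same number did not correlate throughout (r of deviations -0.526 to 0.358 in astrocytes, -0.194 to 0.217 in microglia), so numbers were not taken as pairs. Across numbers, astrocyte control replicate 2 correlated with Aβ42 replicate 3 (0.527) and Aβ40 replicate 1 (0.494), and these with each other (0.506). No alternative blocked on this set of libraries.

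The count of the 9 genes called was 3 in astrocytes with Aβ42, 5 at unadjusted p, 5 with the 7 libraries of one naming style (chosen after seeing the data; Mme 1.09 and Lrp1 -0.43 were added), and 3 to 5 with a library left out. With Aβ40 it was 3, 5 at unadjusted p, 4 with the 7 libraries (Lrp1 -0.63 was added), and 3 to 4 with a library left out. Between the fibrils it was 0 in astrocytes, 2 at unadjusted p and 1 in the 6 libraries alone, and 2 in microglia, 1 with the block, 0 in the 6 libraries alone, 0 at 2-fold or more, and 0 to 3 with a library left out. Between controls it was 7, and 4 with at least 10 counts in every library. With a library left out it was 6 in microglia with Aβ42, and 5 to 6 with Aβ40. The interaction was called for 7 genes with Aβ42, 8 by the DESeq2 Wald test and 7 to 8 with a library left out, and for 5 with Aβ40, 7 with the 7 libraries and 5 to 7 with a library left out. With at least 10 counts in every library it was called for 5 and 4 of 6.

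Over all genes the fibrils differed in 2198 microglia genes, 752 with the block, 106 in the 6 libraries alone and 99 to 6004 with a library left out. In astrocytes they differed in 10, 141 by DESeq2, 265 in the 6 libraries alone, 120 in the 7 libraries, 0 with the block and 0 to 222 with a library left out.

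Values near 0, all not called, changed sign. Under library totals these were Ece1 with Aβ42 (-0.0386) and Mme with Aβ40 (-0.0400) in astrocytes, and Ide (-0.106) and Lrp1 (-0.0129) between controls. The DESeq2 Wald test gave Mme -0.0168 with Aβ40 and Vldlr 0.00161 between fibrils in astrocytes, and DESeq2 size factors gave Vldlr 0.000277. With no filter beyond 1 count Ece1 was 0.00914 with Aβ40. With the 6 libraries compared alone Vldlr was 0.00204 between fibrils in astrocytes, and the replicate block gave Ece2 -0.00583 in microglia with Aβ42. With only the astrocyte libraries of one naming style, an alternative chosen after seeing the data, Ece1 was -0.00456 with Aβ42 and Ide was -0.0148 between fibrils.

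With a library left out, the ranges in astrocytes with Aβ42 were -0.248 to 0.0205 for Ide, -0.148 to 0.000667 for Plat and -0.0411 to 0.152 for Ece1. With Aβ40 they were -0.311 to 0.473 for Mme and -0.0703 to 0.125 for Ece1. Between fibrils they were -0.126 to 0.108 for Vldlr, -0.0169 to 0.159 for Ide, -0.178 to 0.0794 for Plau, -0.0856 to 0.0680 for Plat and -0.0223 to 0.0738 for Ece1. In microglia with Aβ42 they were -0.0414 to 0.150 for Ece2 and -0.126 to 0.0570 for Lrp1. Between fibrils in microglia they were -0.106 to 0.0122 for Plat and -0.0271 to 0.161 for Lrp1, and between controls -0.0298 to 0.311 for Ide.

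Levels per transcript length were not run. An exact test of 3 against 3 libraries cannot go below 0.1, so the calls rest on the model of edgeR. Whether the 3 libraries of a group were separate cultures is not stated, and cell type cannot be told apart from batch or gene table.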

Other observations

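Ttr, transthyretin, an Aβ-binding carrier made mainly by the choroid plexus, was 1977, 2523 and 2247 CPM in control microglia and 0.835, 0.957 and 0.0703 CPM in control astrocytes. It is named after its values were seen. With Aβ42 it was 2813, 2178 and 2348 CPM in microglia, and with Aβ40 2264, 2651 and 2943 CPM, ranges that overlap the controls.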
